A study of Rattus norvegicus with 12 samples.

Results

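Collagen chains were followed in rat heart muscle cell cultures exposed to DEHP, di(2-ethylhexyl) phthalate, a plasticizer of flexible medical plastics. The members were every probe set annotated to exactly 1 gene symbol made of Col, a type number, the letter a and a chain number. There were 27 such probe sets for 25 genes, of 27342 probe sets and 14324 singly named genes in all, and 3 of the 27 were for Col6a4. No filter on low values was applied, so all 27 were tested.

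The cultures were monolayers of cardiomyocytes isolated by enzyme digestion from the hearts of 2-day-old Sprague-Dawley rats and plated on coated coverslips. After 3 days in culture they spent another 3 days in 0.1% DMSO, the vehicle (6 control arrays), or in 50 µg/mL DEHP with 0.1% DMSO (6 DEHP arrays). All cells came from 1 litter, so the tests measure the spread between cultures of that litter and not between litters. Each value is the log2 of an array's deposited ratio, in which the median of the 12 arrays is set to 1 for every probe set. The amount of a transcript is therefore not held in the values, levels cannot be ranked between chains, and it cannot be read from them whether cardiomyocyte or other markers are present or absent.

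Collagens are secreted proteins in which 3 chains with a repeated glycine wind around each other. Fibrillar collagens build the tension-bearing fibres of the heart wall, mostly types I and III with some type V, and are made mainly by fibroblasts. Type IV forms the sheet of the basement membrane that surrounds each muscle cell and vessel, type VI forms beaded filaments, and other types bind to fibril surfaces, build short-chain networks or span the cell membrane. Several molecules need chains from different genes, such as Col1a1 with Col1a2 in type I.

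Under DEHP, 9 collagen genes outside the basement membrane group were lower, namely 6 fibrillar chains (Col1a1, Col1a2, Col3a1, Col5a1, Col5a2 and Col11a1) and Col8a1, Col12a1 and Col14a1. The size of the fall ran from 1.31-fold in Col1a1 to 3.2-fold in Col8a1. In the basement membrane group Col4a1 fell by 0.23 on the log2 scale and Col4a4 rose by 0.35. By limma with Benjamini-Hochberg adjustment over all probe sets and an adjusted p under 0.05, 10 of the 27 collagen probe sets were lower, where 7.82% of all probe sets were, and 1 was higher, where 10.5% were, so 11 were called in either direction, where 18.3% were. Per gene, 10 of 25 were lower and 1 was higher, and over all genes the shares were 10.2% lower and 14.4% higher. The median log2 fold was -0.23 over the collagen genes and -0.02 over all genes. The middle collagen gene was Col9a2, which did not pass (limma adjusted p = 0.411). Its own log2 fold was -0.04 without control replicate 5 and DEHP replicate 6, so the collagen median leans on those arrays. The 6 DEHP values lay below the 6 control values in each of the 10 falling genes, a separation that 5.12% of all probe sets and 6.88% of all genes had. No collagen had all DEHP values above all controls, as 7.12% of all probe sets and 10% of all genes did. These were bulk cultures, in which fewer cells of a type and less RNA per cell cannot be told apart.

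The stretches of DNA just before the annotated transcription start are shown for 5 chains. Of the 25 genes, 20 had an entry in the RefSeq promoter table of the assembly GRCr8, and Col1a1, Col2a1, Col3a1, Col12a1 and Col14a1 had none. Col1a2, Col5a2 and Col11a1 are shown because they fell and their windows lie outside their own annotated gene. The window of Col4a1 also does, but it overlaps the annotated gene Col4a2 and is not printed. Col4a3 and Col4a4 are shown because they start in opposite directions from 1 shared region and only Col4a4 passed as higher. Each sequence gives the 250 bases before the annotated start, 5′ to 3′ on the gene's strand. The annotated starts were not checked, so a window may hold transcribed bases. Capitals mark 4 motifs on either strand, namely the CCAAT box, the TATA box TATAAA, the GC box GGGCGG and the nuclear receptor motif AGGTCA.
Col1a2: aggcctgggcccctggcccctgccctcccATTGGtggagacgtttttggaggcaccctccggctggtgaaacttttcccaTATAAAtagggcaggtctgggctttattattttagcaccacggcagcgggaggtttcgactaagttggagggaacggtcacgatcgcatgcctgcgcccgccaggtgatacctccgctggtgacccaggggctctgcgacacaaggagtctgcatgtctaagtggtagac
Col5a2: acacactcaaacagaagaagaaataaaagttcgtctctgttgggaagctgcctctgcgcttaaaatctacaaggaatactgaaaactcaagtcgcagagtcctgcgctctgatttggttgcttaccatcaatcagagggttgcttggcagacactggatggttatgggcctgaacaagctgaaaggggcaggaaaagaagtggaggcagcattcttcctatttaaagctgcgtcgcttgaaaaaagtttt
Col11a1: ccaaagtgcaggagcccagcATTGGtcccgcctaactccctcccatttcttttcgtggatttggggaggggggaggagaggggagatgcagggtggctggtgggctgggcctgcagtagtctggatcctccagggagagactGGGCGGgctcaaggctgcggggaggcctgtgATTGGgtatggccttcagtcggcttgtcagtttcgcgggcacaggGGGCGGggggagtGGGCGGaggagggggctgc
Col4a3: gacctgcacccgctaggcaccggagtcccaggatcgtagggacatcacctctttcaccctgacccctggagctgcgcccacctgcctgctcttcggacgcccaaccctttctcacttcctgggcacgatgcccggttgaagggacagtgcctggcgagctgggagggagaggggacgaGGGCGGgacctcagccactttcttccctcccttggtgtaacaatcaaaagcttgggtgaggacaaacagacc
Col4a4: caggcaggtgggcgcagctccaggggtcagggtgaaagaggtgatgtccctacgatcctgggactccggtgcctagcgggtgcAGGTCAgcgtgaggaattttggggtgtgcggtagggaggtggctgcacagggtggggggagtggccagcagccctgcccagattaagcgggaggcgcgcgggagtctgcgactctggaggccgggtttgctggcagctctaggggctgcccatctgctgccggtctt

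The windows are chr4:33518307-33518556 on the + strand for Col1a2, chr9:55090152-55090401 on the - strand for Col5a2, chr2:204508886-204509135 on the + strand for Col11a1, chr9:91323740-91323989 on the + strand for Col4a3 and chr9:91323578-91323827 on the - strand for Col4a4, all in GRCr8. The annotated starts of Col4a3 and Col4a4 are 412 bases apart, and 88 bases of their windows are the same DNA read on opposite strands. Col1a2 holds 1 CCAAT and 1 TATAAA, Col11a1 holds 2 CCAAT and 3 GC boxes, and Col5a2 holds none of the 4 motifs. In Col1a2 both motifs lie nearer the far end of the window than the annotated start. Col4a3 holds 1 GC box and Col4a4 holds 1 AGGTCA. Both motifs lie in the shared region between the annotated starts. The AGGTCA runs across the end of the Col4a3 window, which holds only part of it, so its absence there comes from the window length. Over the 20 collagen windows, 7 held CCAAT, 4 held TATAAA, 11 held the GC box and 2 held AGGTCA. Of 33469 windows of the same length in the table, 34% held CCAAT, 12.9% TATAAA, 30.5% the GC box and 14.1% AGGTCA. Those windows came from 27457 genes, not only measured ones, and some genes had several, so the 2 sets of windows are not alike. The motifs are matches of letters in these windows and nothing more was measured of them.

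Among the fibrillar collagens, 6 of 10 genes fell, 0 rose and 4 did not pass, where 10.2% of all genes were lower and 14.4% higher. Their median log2 fold was -0.40. Counted at an unadjusted limma p under 0.05, 8 of the 10 were lower and still none was higher, where 14.9% of all genes were lower and 20.6% higher at that threshold. Col11a1, a minor chain that sits inside fibrils and helps set their thickness, had log2 ratios of 0.33, 0.54 and 0.87 in controls (lowest, median and highest of 6 arrays) and -1.01, -0.57 and -0.33 under DEHP. The groups did not overlap, and DEHP replicate 6 was the lowest array. The log2 fold was -1.16 ± 0.12 (SE, limma, adjusted p = 1.29e-05, n = 6 arrays per group), a 2.23-fold lower value.

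Col5a2 and Col5a1 encode chains of type V collagen, which starts and limits fibril growth. Col5a2 ran from 0.17 through a median of 0.42 to 0.60 in controls and from -0.42 through -0.24 to -0.17 under DEHP, and Col5a1 from 0.16 through 0.30 to 0.42 and from -0.69 through -0.25 to -0.16. Their log2 folds were -0.68 ± 0.08 and -0.60 ± 0.08 (SE, limma adjusted p = 2.97e-05 and 0.000225). Both lay wholly below the controls under DEHP, with DEHP replicate 6 lowest for Col5a1. Col5a3, a chain of type V with a more limited spread among tissues, had -0.29 ± 0.10 and missed the threshold (limma adjusted p = 0.0583). Its controls ran from -0.10 to 0.39 and its DEHP arrays from -0.44 to 0.09, so the groups overlapped. Col5a3 passed without DEHP replicate 2 (limma adjusted p = 0.048), DEHP replicate 5 (0.0253) or control replicate 1 (0.0328). Without DEHP replicate 6, its lowest array, the log2 fold was -0.23 and did not pass (limma adjusted p = 0.113). The same held without control replicate 5, its highest array (-0.24, 0.096), and without both (-0.18, 0.148).

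The chains of the common fibrils fell by less. Col1a1 and Col1a2 together form type I collagen, the main fibre protein of the heart. Col1a1 had 0.11, 0.22 and 0.30 in controls (lowest, median, highest) and -0.35, -0.14 and -0.11 under DEHP, with a log2 fold of -0.39 ± 0.05 (SE, limma adjusted p = 9.51e-05). Col1a2 had 0.08, 0.20 and 0.33 in controls and -0.51, -0.14 and -0.08 under DEHP, with -0.41 ± 0.07 (SE, limma adjusted p = 0.00115). Col3a1, whose type III fibres are finer and more pliable, had 0.08, 0.19 and 0.34 in controls and -0.83, -0.10 and -0.08 under DEHP, with -0.45 ± 0.12 (SE, limma adjusted p = 0.0157). In these 3 genes the groups were separate, and DEHP replicate 6 was lowest by a wide gap. Without DEHP replicate 6 their log2 folds were -0.35, -0.35 and -0.33 in the order named, and all 3 still passed (limma adjusted p = 4.57e-05, 0.00023 and 0.000805). Against a minimum fold of 1.2 none of the 3 passed (limma adjusted p = 0.22, 0.441 and 0.84), and at an adjusted p under 0.01 Col3a1 did not.

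The other fibrillar chains are known mainly from cartilage. Col2a1, the main cartilage collagen (-0.26 ± 0.11, limma adjusted p = 0.155), Col11a2 (-0.18 ± 0.19, 0.578) and Col27a1 (-0.16 ± 0.15, 0.539) did not pass, and their control and DEHP arrays overlapped. The 95% intervals of these log2 folds ran from -0.50 to -0.01 for Col2a1, from -0.58 to 0.23 for Col11a2 and from -0.50 to 0.17 for Col27a1. Control replicate 5 was the highest array in each, at 0.59, 0.94 and 0.80, and without it the log2 folds were -0.16, -0.02 and -0.03.

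**Figure D1:**
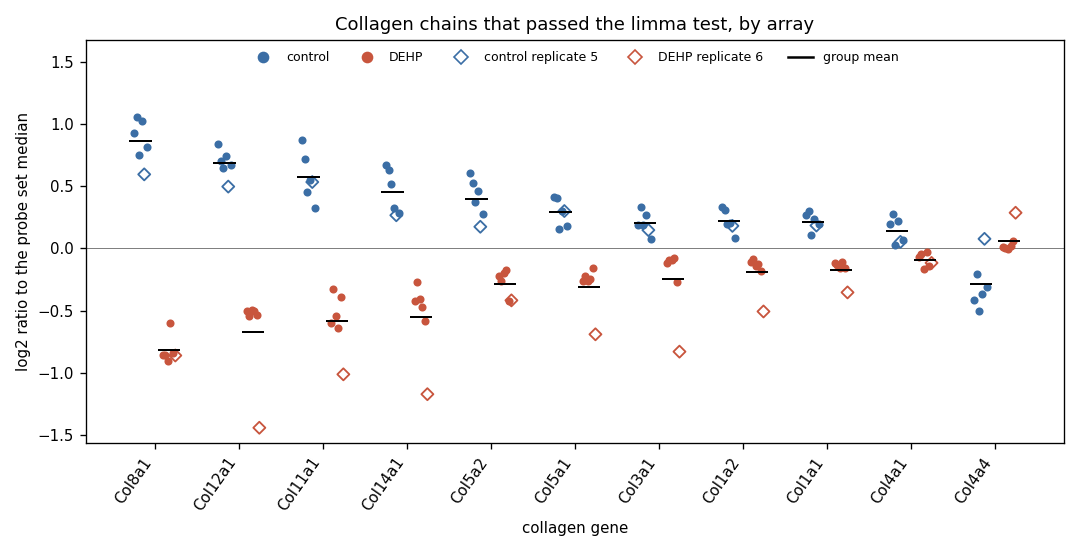
Log2 ratio to the probe set median (y axis) in each array for the 11 collagen genes that passed (x axis), with controls in blue, DEHP in red, bars at the group means and diamonds for control replicate 5 and DEHP replicate 6. The groups are separate in the 10 falling genes and overlap in Col4a4, and DEHP replicate 6 lies far below the other DEHP arrays in Col12a1, at -1.44.

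Only 3 basement membrane chains were measured, all of type IV, and they moved in different directions. Col4a1, a chain found in nearly every basement membrane, had 0.03, 0.13 and 0.28 in controls (lowest, median, highest) and -0.17, -0.09 and -0.03 under DEHP. Its log2 fold was -0.23 ± 0.05 (SE, limma adjusted p = 0.00461), a 1.18-fold fall with separate groups, which did not pass against a minimum fold of 1.2. Col4a4, which joins Col4a3 and Col4a5 in the basement membranes of kidney filter, lung and inner ear, had -0.50, -0.34 and 0.08 in controls and 0.00, 0.02 and 0.29 under DEHP, the lowest DEHP value being just under 0. It was the single collagen gene that rose (0.35 ± 0.09 SE, limma adjusted p = 0.0142). Its groups overlapped because control replicate 5, at 0.08, was above 5 of the 6 DEHP arrays, and without that array the log2 fold was 0.42 (limma adjusted p = 0.00043). At an adjusted p under 0.01, or against a minimum fold of 1.2, Col4a4 did not pass. Col4a3 ran from -0.39 to 0.35 in controls and from -0.02 to 0.17 under DEHP, with a log2 fold of 0.14 ± 0.10 (SE, limma adjusted p = 0.399). Without control replicate 5 it passed at 0.22 (limma adjusted p = 0.0321), and without both control replicate 5 and DEHP replicate 6 it did not, at 0.20 (0.0566).

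The beaded group held 1 gene, Col6a4, a chain related to the common type VI chains. None of its 3 probe sets passed limma, and 0 of the 3 had an unadjusted p under 0.05. Their log2 folds were -0.20 ± 0.14, -0.13 ± 0.08 and -0.03 ± 0.09 (SE, limma adjusted p = 0.392, 0.301 and 0.873). Control replicate 5 was the highest array for each, at 0.76, 0.43 and 0.40.

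The other collagens comprised 11 genes, of which 3 fell, 0 rose and 8 did not pass, where 10.2% of all genes were lower and 14.4% higher. Their median log2 fold was -0.19, that of Col13a1, which did not pass. Without control replicate 5 and DEHP replicate 6 the log2 fold of Col13a1 was -0.06, so this median leans on those arrays. At an unadjusted limma p under 0.05 the count was also 3 lower and 0 higher of 11, beside the 14.9% and 20.6% of all genes. Col8a1 forms the short-chain networks made by vessel wall and other mesenchymal cells, and it had the largest fall of the 25 genes in the full comparison. It ran from 0.60 through 0.87 to 1.05 in controls and from -0.90 through -0.86 to -0.60 under DEHP. Its log2 fold was -1.68 ± 0.08 (SE, limma adjusted p = 4.69e-08), and it was -1.67 without DEHP replicate 6, so its size did not rest on that array. The related network chain Col10a1, a marker of growth plate cartilage, had -0.22 ± 0.13 (limma adjusted p = 0.303).

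Col12a1 and Col14a1 encode fibril-associated collagens, which coat fibres of type I and bridge them to other matrix proteins. Col12a1 had 0.50, 0.69 and 0.84 in controls (lowest, median, highest) and -1.44, -0.52 and -0.50 under DEHP, with a log2 fold of -1.35 ± 0.15 (SE, limma adjusted p = 2.57e-05). The other 5 DEHP arrays of Col12a1 lay between -0.55 and -0.50, and without replicate 6 the log2 fold was -1.20 (limma adjusted p = 3.57e-08). Col14a1 had 0.27, 0.42 and 0.67 in controls and -1.17, -0.45 and -0.27 under DEHP, with -1.002 ± 0.14 (SE, limma adjusted p = 0.000178) and -0.88 without DEHP replicate 6. The groups were separate for both genes. The fibril-associated chains Col16a1 (-0.16 ± 0.08, limma adjusted p = 0.205), Col9a1 (-0.11 ± 0.12, 0.602) and Col9a2 (-0.23 ± 0.17, 0.411) did not pass. For Col16a1, DEHP replicate 6 was the lowest array at -0.43 and the log2 fold without it was -0.09.

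Of the transmembrane collagens, which are anchored in the surface of the cell that makes them, Col13a1 (-0.19 ± 0.14), Col17a1 (-0.16 ± 0.11) and Col23a1 (-0.01 ± 0.11) did not pass (limma adjusted p = 0.426, 0.417 and 0.96). Col7a1, which builds the anchoring fibrils of skin, had -0.18 ± 0.14 (limma adjusted p = 0.452). None of these 4 had an unadjusted limma p under 0.05. Their 95% intervals reached from -0.50 to 0.22 at the widest bounds, so changes within those bounds are not excluded for these 4 genes.

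**Figure D2:**
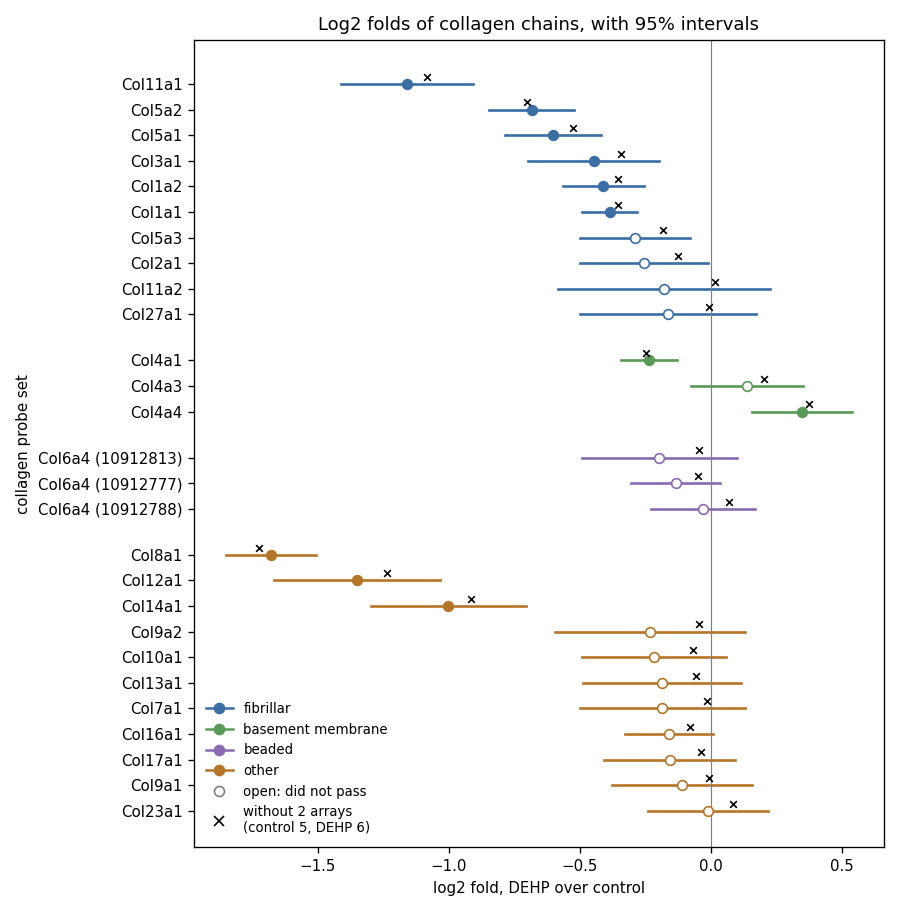
Log2 fold of DEHP over control (x axis) for each of the 27 collagen probe sets (y axis), coloured by group, with 95% intervals, filled circles where the test passed and crosses for the log2 fold without control replicate 5 and DEHP replicate 6. The 9 falls outside the basement membrane group lie between -1.68 and -0.39, and the open circles lie between -0.29 and 0.14.

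The 10 falling genes and the 16 probe sets that did not pass differed in how they behaved in single arrays. Both sets were split by the limma test on these same arrays. An outlying value bears on that test, so the contrast is not independent of the split. How often control replicate 5 was highest or DEHP replicate 6 lowest over all probe sets was not counted. Control replicate 5 was the highest of the 12 arrays in 15 of the 16 probe sets that did not pass and in 0 of the 10 falling genes, where it was the lowest control in 4. It lay a median of 0.58 above the mean of the other controls in the former and 0.09 below it in the latter (median difference -0.09). DEHP replicate 6 was the lowest of the 12 arrays in 7 of the 10 falling genes and in 10 of the 16 others. Over all probe sets the SD of the log2 ratios was 0.37 in control replicate 5 and 0.27 in DEHP replicate 6, and 0.15 to 0.19 elsewhere, so these arrays stand apart beyond the collagens. Their part in the folds was measured by leaving both out: all 10 falls and the rise of Col4a4 passed, with log2 folds of the falling genes between -1.73 and -0.25, and 0 of the 16 others passed. The 16 log2 folds then lay between -0.18 and 0.20, compared with -0.29 to 0.14 over all arrays.

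**Figure D3:**
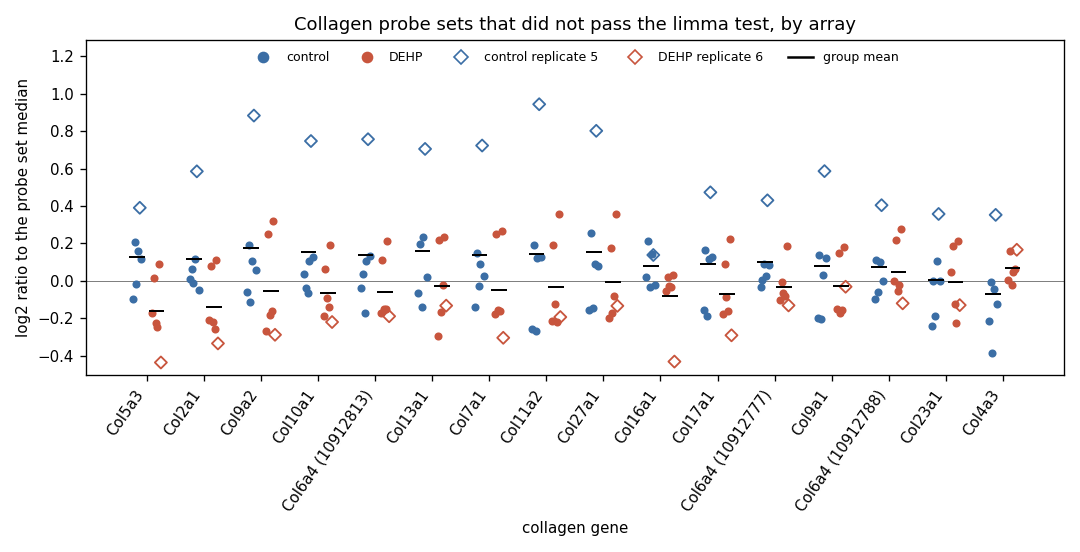
Log2 ratio to the probe set median (y axis) in each array for the 16 collagen probe sets that did not pass (x axis), with controls in blue, DEHP in red, bars at the group means and diamonds for control replicate 5 and DEHP replicate 6. Control replicate 5 is the highest point in 15 of the 16, reaching 0.94 in Col11a2. The 16 were split off by the test on these same arrays, and the share over all probe sets was not counted.

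Markers of other cell types were followed in the same arrays. Their counts stand beside shares over all genes of 10.2% lower and 14.4% higher. In a list of 9 smooth muscle and myofibroblast genes, 8 were measured, of which 7 fell and 1 rose, with a list mean of 0.54 to 0.70 in controls and -1.06 to -0.53 under DEHP. The lowest mean, -1.06, was that of DEHP replicate 6, and in the other DEHP arrays it ran from -0.78 to -0.53. The fibroblast list had 10 genes, with 6 lower, 3 higher and 1 not past the threshold, and its mean ran from 0.05 to 0.22 in controls and from -0.41 to -0.13 under DEHP, again lowest in DEHP replicate 6. The fibroblast markers Thy1 (-1.25 ± 0.14) and Mfap5 (-1.83 ± 0.09) fell, and Pdgfra (0.90 ± 0.07) rose.

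Of 8 cardiomyocyte markers, 2 rose, 2 fell and 4 did not pass, where 14.4% of all genes were higher and 10.2% lower. The lists below are small beside these shares. In 5 measured endothelial markers 3 rose and 0 fell (limma, and 0 fell at an unadjusted p under 0.05 too), and of 5 leukocyte markers 2 rose and 1 fell. All 3 measured epicardial markers rose, and of 3 measured Schwann cell markers 1 fell. The part of these other cell types in the collagen values was not tested.

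Within an array, the log2 ratio of 1 chain less that of its partner compares the measured changes of chains of the same molecule or fibril. Levels are not held in the values and no filter on dim probe sets was applied. An unequal change of the transcripts therefore cannot be told apart from a weak signal of 1 partner. For this, 13 pairs were chosen with earlier results of these data known, and 7 of them had both chains measured. Each of the 7 was tested by a two-sided exact permutation test of DEHP against control arrays. With 6 against 6 arrays the smallest possible p was 0.00216, and the p-values were adjusted over the 7 pairs. In 3 pairs the difference passed.

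Col11a1 less Col11a2 was 0.43 ± 0.52 in controls and -0.55 ± 0.19 under DEHP (mean ± SD over 6 arrays a group), a difference of -0.98 ± 0.22 (SE, exact permutation p = 0.00433, adjusted 0.0151). The groups overlapped through control replicate 5, at -0.41, and did not overlap without it, when the difference was -1.15. Col5a1 less Col5a3 was 0.17 ± 0.20 in controls and -0.15 ± 0.11 under DEHP (mean ± SD over 6 arrays a group), a difference of -0.31 ± 0.09 (SE, exact permutation p = 0.00649, adjusted 0.0151). These groups also overlapped through control replicate 5, at -0.09, and did not overlap without it, when the difference was -0.37. The log2 fold was thus more negative in Col5a1 than in Col5a3 and in Col11a1 than in Col11a2.

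The third pair was that of the shared start region printed above. Col4a3 less Col4a4 was 0.22 ± 0.07 in controls and 0.01 ± 0.09 under DEHP (mean ± SD over 6 arrays a group), a difference of -0.21 ± 0.05 (SE, exact permutation p = 0.00433, adjusted 0.0151). It ran from 0.11 to 0.33 in controls and from -0.12 to 0.16 under DEHP, so the groups overlapped. The log2 fold was thus larger in Col4a4 than in Col4a3.

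In the other 4 pairs no difference was shown. For type I, Col1a1 less Col1a2 changed by 0.02, with a 95% interval from -0.07 to 0.11 (exact permutation p = 0.567, adjusted 0.661). For Col1a1 less Col3a1 the change was 0.06 with an interval from -0.14 to 0.26, for Col5a1 less Col5a2 it was 0.08 with an interval from -0.11 to 0.28, and for Col9a1 less Col9a2 it was 0.12 with an interval from -0.05 to 0.29. Without control replicate 5 and DEHP replicate 6, Col5a1 less Col5a2 passed, at 0.18 (exact permutation test, adjusted p = 0.0185 over the 7 pairs).

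**Figure D4:**
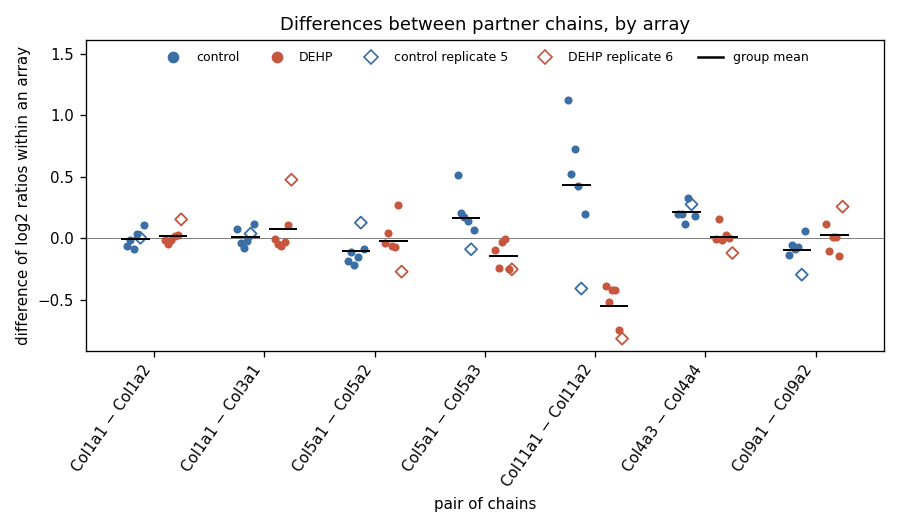
Difference of log2 ratios between 2 partner chains within an array (y axis) for the 7 measured pairs (x axis), with controls in blue, DEHP in red, bars at the group means and diamonds for control replicate 5 and DEHP replicate 6. Group means are furthest apart for Col11a1 less Col11a2, at 0.43 and -0.55, and nearly equal for Col1a1 less Col1a2.

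On the chromosome, Col3a1 and Col5a2 are neighbours on rat chromosome 9 with 0 protein-coding genes between them in the RefSeq table, and both fell. Col4a3 and Col4a4 are also direct neighbours on chromosome 9.

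Genes that act on collagen were taken from 6 lists with 90 genes in all, of which 74 were measured. Of these 28 fell, 15 rose and 31 did not pass, and their median log2 fold was -0.06. Over all genes 24.6% were called in either direction, 10.2% lower and 14.4% higher. The counts of each list below stand beside these shares.

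In folding and modification of new chains, 7 of 19 measured genes fell, 1 rose and 11 did not pass. P4ha3, a catalytic subunit of the prolyl hydroxylases that let the helix form, had controls from 0.57 to 0.94 and DEHP arrays from -0.94 to -0.57 and a log2 fold of -1.50 ± 0.08 (SE, limma adjusted p = 6.31e-08). P3h2, another prolyl hydroxylase that acts on type IV chains, fell (-1.13 ± 0.08, limma adjusted p = 7.79e-07), and so did Plod2, which hydroxylates lysines used in crosslinks (-0.54 ± 0.07, 0.000214). P4hb, the partner subunit of the P4ha enzymes and a general disulfide isomerase, rose (0.27 ± 0.05, limma adjusted p = 0.00292), while Plod1 (0.14 ± 0.06, 0.157) and Pdia3 (0.06 ± 0.04, 0.357) did not pass. Plod1 passed without DEHP replicate 6 (limma adjusted p = 0.0451). Serpinh1, the collagen chaperone HSP47, chosen here after its values were seen, fell by 0.36 on the log2 scale (limma adjusted p = 0.00376).

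Of 11 measured genes of secretion and trimming, 4 fell, 0 rose and 7 did not pass. At an unadjusted limma p under 0.05 the count was 5 of 11, all lower, where 14.9% of all genes were lower and 20.6% higher. The largest positive log2 fold was that of Adamts3 (0.31 ± 0.16, limma adjusted p = 0.233), a procollagen peptidase, which passed without control replicate 5 and DEHP replicate 6 (limma adjusted p = 0.043). Tll1, a protease that removes the C-terminal propeptide, fell (-1.44 ± 0.15, limma adjusted p = 1.53e-05), with controls from 0.32 to 1.05 and DEHP arrays from -1.14 to -0.32. The falls of Adamts14 (-0.21 ± 0.05, 0.0173) and of the C-propeptide protease Bmp1 (-0.16 ± 0.05, 0.0388) were small, with overlapping groups. Bmp1 did not pass when any of 8 of the 12 arrays was left out, with an limma adjusted p of up to 0.0883. Furin (0.10 ± 0.06, 0.295) and Sec24d (0.03 ± 0.05, 0.771) did not pass.

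All 6 measured crosslinking genes passed, 4 lower and 2 higher. Loxl1 (-0.78 ± 0.07, limma adjusted p = 7.73e-06), Loxl2 (-0.66 ± 0.08, 8.67e-05) and Loxl3 (-0.32 ± 0.07, 0.00674), enzymes of the lysyl oxidase family that join chains covalently, fell. Loxl4 of the same family (0.30 ± 0.07, 0.0109) and the transglutaminase Tgm2 (0.24 ± 0.07, 0.0313) rose. Control and DEHP arrays overlapped for Loxl3, Loxl4 and Tgm2, and Tgm2 did not pass when any of 6 of the 12 arrays was left out.

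Proteins that bind fibrils went both ways, with 5 of 12 measured genes lower, 4 higher and 3 not passing. Aspn, a small leucine-rich proteoglycan that binds type I collagen, fell (-1.65 ± 0.12, limma adjusted p = 1.25e-06), as did Ogn, of the same family (-0.68 ± 0.15, 0.00723), and fibronectin, Fn1 (-0.27 ± 0.04, 0.000432). Fmod (0.65 ± 0.09, 0.000321), Dcn (0.41 ± 0.05, 4.95e-05) and Postn (0.47 ± 0.04, 3.07e-06) rose. Fibromodulin and decorin, encoded by Fmod and Dcn, are proteoglycans that limit fibril width, and periostin, from Postn, aids crosslinking. Fmod had separate groups, as did Dcn and Postn, which also stand in the lists of fibroblast and myofibroblast markers.

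Among receptors and other cell surface binders, 6 of 11 measured genes fell, 2 rose and 3 did not pass. Itga11, the integrin chain that binds fibrillar collagen on fibroblasts, fell (-1.46 ± 0.13, limma adjusted p = 4.38e-06), with controls from 0.55 to 0.80 and DEHP arrays from -1.45 to -0.55. Antxr1, a surface protein that binds collagens (-0.66 ± 0.08, 4.56e-05), and Itgb1, the shared integrin partner chain (-0.38 ± 0.05, 0.000192), also fell. Itga2, another collagen-binding integrin chain (0.46 ± 0.09, 0.00265), and Mrc2, a receptor that takes up collagen fragments (0.33 ± 0.07, 0.00573), rose. The collagen-activated kinase Ddr2 did not pass (0.16 ± 0.07, 0.165).

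In collagen breakdown, 6 of 15 measured genes rose, 2 fell and 7 did not pass. The gelatinase Mmp2 (0.70 ± 0.05, limma adjusted p = 5.63e-07), the membrane protease Mmp14, which activates it (0.61 ± 0.06, 8.02e-06), and the lysosomal protease Ctsl (0.47 ± 0.05, 8.87e-06) rose, each with separate groups. Mmp2 ran from -0.54 to -0.24 in controls and from 0.24 to 0.33 under DEHP. The inhibitor Timp3 (-1.42 ± 0.11, 1.39e-06) and the protease Ctsk, which cleaves native collagen (-0.29 ± 0.07, 0.0123), fell, and Timp4 (-0.19 ± 0.11, 0.28) did not pass. For Timp3, control replicate 5 was the lowest control at 0.49 and DEHP replicate 6 the lowest DEHP array at -1.15.

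**Figure D5:**
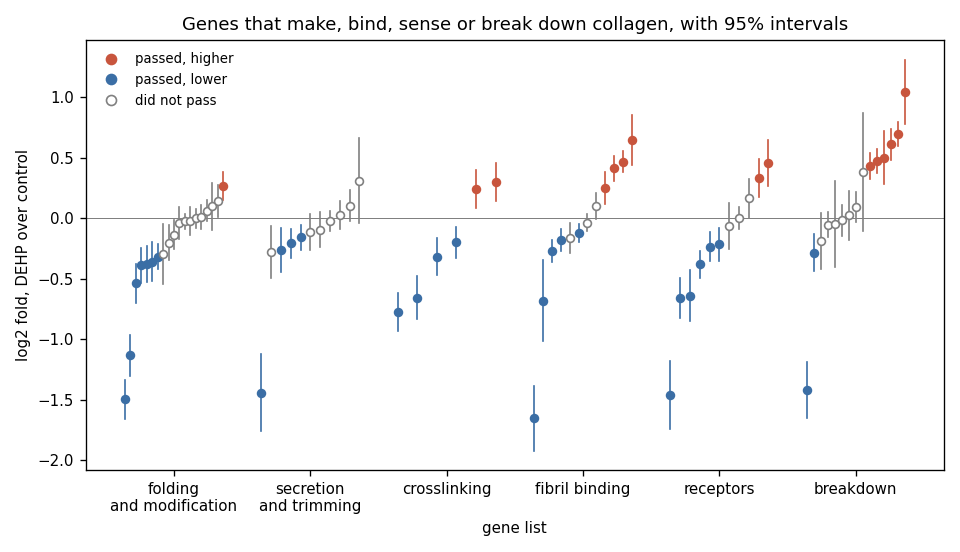
Log2 fold of DEHP over control (y axis) with 95% intervals for the 74 measured genes of the 6 lists (x axis), in order of fold within a list, with filled circles for genes that passed. Falls reach -1.65 (Aspn), and rises are most numerous in breakdown, at 6 of 15.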

How the data were processed

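Total RNA of 12 cultures was measured on Affymetrix arrays, 1 per culture. Per the submitters' processing notes the authors used RMA, whose version is not given. What was deposited is a linear ratio of each array to the probe set's median over the 12 arrays. The number of arrays limits the precision. Genome build and annotation version of the arrays are not given in the sources used here.

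Log2 of each ratio was taken with no further normalization. DEHP was compared with control by limma 3.58.1 (R 4.3.3; lmFit, eBayes) over all 27342 probe sets, two-sided, with Benjamini-Hochberg adjustment and an adjusted p under 0.05. Symbols came from the platform annotation, and 27 of 27 collagen identifiers matched a RefSeq table (GRCr8). A gene with several probe sets took the lowest-numbered one. The script was tested on simulated data. Exact permutation tests used scipy 1.17.1, and plots matplotlib 3.10.9.

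The members, classes, gene lists, pairs and alternatives were chosen with earlier results of these data known. Every collagen gene is named, and from each list the 3 genes of smallest p in each direction. Groups were taken from sample titles. Background correction and a filter on dim probe sets could not be run on ratios.

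Alternatives were quantile normalization, median centring, robust eBayes, array weights, a minimum fold of 1.2, an adjusted p under 0.01, the mean of a gene's probe sets, the replicate number as a block, each array left out, and control replicate 5 with DEHP replicate 6 left out.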

Additional observations from a re-analysis of the deposited data

Results flagged for a closer look

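In each group of 6 arrays, the gap of the highest or lowest array to its neighbour was set against the range of the group (Dixon's test at 95%), a check that chance passes in about 1 in 20 groups. Of 54 groups over the 27 collagen probe sets, 15 had such an array, 8 of them DEHP replicate 6, 6 control replicate 5 and 1 another array.

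DEHP replicate 6 was far below the other DEHP arrays in Col12a1 (log2 ratio -1.44), Col14a1 (-1.17), Col3a1 (-0.83), Col5a1 (-0.69), Col1a2 (-0.51), Col16a1 (-0.43) and Col1a1 (-0.35), and far above them in Col4a4 (0.29). Control replicate 5 was far above the other controls in Col9a2 (0.88), Col10a1 (0.75), Col7a1 (0.72), Col2a1 (0.59) and 2 probe sets of Col6a4 (0.76 and 0.43). In Col8a1 DEHP replicate 4 was above the other DEHP arrays, at -0.60.

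Among 70 groups of the named genes that act on collagen, 12 had such an array. DEHP replicate 6 stood apart in Itga11 (-1.45), Timp3 (-1.15), Ctsk (-0.55), Plod1 (-0.16), Loxl4 (-0.10), P4hb (0.29) and Ddr2 (0.42). Control replicate 5 did in Adamts3 (-0.72), P4hb (-0.32), Sec24d (-0.24) and Timp3 (0.49), and DEHP replicate 3 in Mmp2 (0.24). Of 14 groups of pair differences, 2 did, namely Col1a1 less Col3a1 in DEHP replicate 6 (0.48) and Col5a1 less Col5a2 in control replicate 5 (0.13).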

How the results depend on the processing

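The falls of 10 collagen probe sets became 6 against a minimum fold of 1.2, when Col3a1, Col1a2, Col1a1 and Col4a1 no longer passed. The count of rises, 1, became 0 there and at an adjusted p under 0.01. Against the minimum fold, 6 collagen genes passed in place of 11, with 3 fibrillar genes lower in place of 6, 0 basement membrane genes lower and 0 higher (also 0 higher at an adjusted p under 0.01), and 17 genes that act on collagen in place of 43. This test asks for a larger effect, so fewer genes can pass.

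With 1 array left out the counts were 10 to 11 probe sets lower, 1 to 2 higher, 11 to 12 collagen genes called, 6 to 7 fibrillar, 1 basement membrane gene lower, 1 to 2 higher, 0 beaded genes, 3 other genes lower, 3 partner differences and 38 to 45 genes that act on collagen. The second rise was Col4a3 without control replicate 5.

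The replicate numbers do not pair the arrays by the rule used, since the deviations of same-numbered arrays correlated at 0.07 to 0.77 and 1 pair was under 0.1, with 3 of 6 controls matching their own number best. With the replicate block, 12 collagen probe sets were lower and 0 partner differences passed. An exact test within 6 blocks cannot go below p = 0.0312, so after adjustment over 7 pairs the 3 smallest were at 0.0728. Array weights and the block also called Col5a3 and Col2a1 lower, and quantile normalization called Col5a3.

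Signs turned only in values that did not pass. Col23a1 was 0.0845 without both arrays, 0.0274 after quantile normalization and -0.0597 to 0.0596 with 1 array left out. The Col6a4 probe set with the smallest fold was 0.0714, 0.0152 and -0.0733 to 0.0377 in the same settings. Col11a2 was 0.0147 without both arrays, and Sec24d was -0.0160 to 0.0459 with 1 array left out. Col1a1 less Col1a2 was -0.00116 without both arrays and -0.00233 to 0.0466 with 1 left out, and Col1a1 less Col3a1 -0.0145 and -0.0192 to 0.0890. The cause was not tested.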
